A study of Mus musculus with 3 samples.

Results

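Ad4BP/SF-1, encoded by *Nr5a1*, is the nuclear receptor that steroidogenic cells need for their identity, and Leydig cells are the androgen-producing cells between the tubules of the testis. Luteinizing hormone acts on them through the receptor encoded by *Lhcgr*, which raises cAMP, and they secrete insulin-like 3, the hormone of testis descent. Signals of the insulin, PDGF, KIT and hedgehog families control how many Leydig cells form and mature. Ad4BP/SF-1 binds DNA as a monomer at extended half-sites such as TCAAGGTC. Described here are its binding regions around 10 genes of these signals out of 21938 protein-coding genes, namely *Lhcgr*, *Insl3*, *Igf1*, *Igf1r*, *Insr*, *Pdgfra*, *Pdgfrb*, *Kit*, *Ptch1* and *Gli1*. The genes were listed for their known roles, with earlier results of these data known, and a peak was counted for a gene when it overlapped its annotated body, extended by 50 kb at both ends.

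Leydig cells of male ICR mice, 9 weeks old, were cultured on collagen and treated with vehicle or cAMP, and the chromatin of each culture was immunoprecipitated with a rabbit antibody against Ad4BP/SF-1. The dose and length of the cAMP treatment are not given in the sources used here. The cells came from pooled testes, and 1 library was made per condition, so a difference between conditions has no replicate error to be judged by. The deposited lists hold 5721 peaks for vehicle and 4025 for cAMP, each with the score of the peak caller MACS, which is 10 times the negative log10 of a p-value. The lowest scores were 50 and 50.01, and the highest were 904.96 and 803.27. Read numbers are unknown, and both a score and the chance that a region enters a list rise with depth. For that reason each peak is also placed within its own list, as the percentage of peaks that score lower. Absence from a list means that no peak was called, not that the protein was absent from the DNA.

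Ad4BP/SF-1 peaks lay near the receptors for insulin, IGF1 and KIT ligand and near the hedgehog receptor, and none lay within 50 kb of the LH receptor gene or *Insl3*. The vehicle list held peaks at *Igf1r*, *Insr* and *Kit*, or 3 of the 10 genes. Among all protein-coding genes, 36.7% had a vehicle peak in the same window. The cAMP list held peaks at *Insr*, *Kit* and *Ptch1*, again 3 genes, beside 28.9% of all genes. Both lists held a peak for *Insr* and *Kit*, or 2 of 10, beside 22.5% of all genes. *Lhcgr*, *Insl3*, *Igf1*, *Pdgfra*, *Pdgfrb* and *Gli1*, or 6 of 10, had no peak in either list, which held for 56.9% of all genes. At this window the 10 genes thus stood near the background of the lists, which was not matched for gene length. No count here is a result about the genes as a group.

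**Figure D1:**
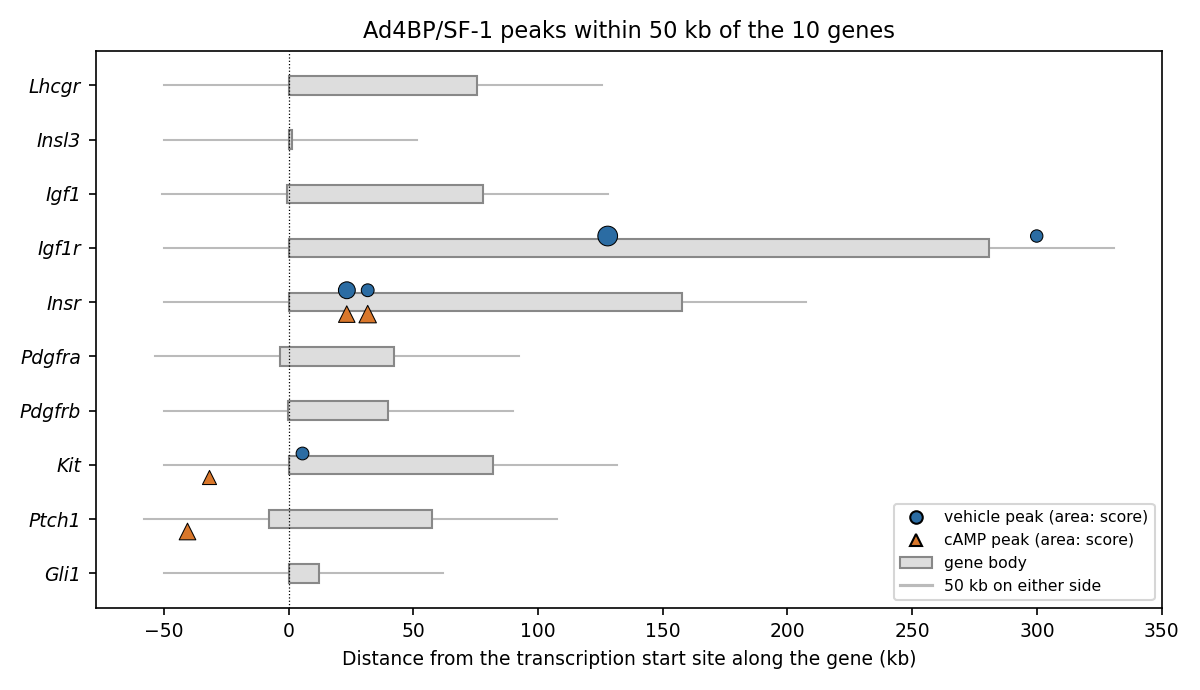
Each row is 1 of the 10 genes, drawn from its transcription start site in the direction of transcription, in kb. The grey box is the gene body and the line the 50 kb on either side. Circles are vehicle peaks and triangles cAMP peaks, with the symbol's area in proportion to the score. Of the 9 symbols, the 4 at *Insr* form overlapping pairs, and the others stand alone.

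The DNA under these peaks is shown first, with the letters that Ad4BP/SF-1 is known to recognise. The consensus searched was TCAAGGTC, CCAAGGTC, TCAAGGCC or CCAAGGCC on either strand, and its core CAAGGTC or CAAGGCC. Each line below holds 121 bases of the plus strand of mm10 (GRCm38), with the copy of the consensus in capitals. Where a peak held more than 1 copy, the copy nearest to its centre is shown.
*Insr* intron 2, far peak, chr8:3247818-3247938: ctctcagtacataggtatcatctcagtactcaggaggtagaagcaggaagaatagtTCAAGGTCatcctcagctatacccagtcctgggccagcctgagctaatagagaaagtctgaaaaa
*Insr* intron 2, near peak, chr8:3256263-3256383: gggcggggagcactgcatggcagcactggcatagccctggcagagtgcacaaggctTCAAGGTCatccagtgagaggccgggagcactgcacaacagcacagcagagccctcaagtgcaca
*Igf1r* intron 2, vehicle peak, chr7:68080380-68080500: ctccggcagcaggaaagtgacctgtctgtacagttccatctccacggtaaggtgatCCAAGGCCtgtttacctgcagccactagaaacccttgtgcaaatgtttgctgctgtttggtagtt
*Kit* intron 1, vehicle peak, chr5:75580163-75580283: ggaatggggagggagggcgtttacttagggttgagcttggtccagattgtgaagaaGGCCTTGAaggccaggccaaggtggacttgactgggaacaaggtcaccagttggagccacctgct
*Kit* upstream, cAMP peak, chr5:75542818-75542938: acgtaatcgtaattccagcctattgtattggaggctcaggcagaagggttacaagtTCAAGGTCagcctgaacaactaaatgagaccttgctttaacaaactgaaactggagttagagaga
In the *Kit* intron the copy is read on the minus strand, as TCAAGGCC. The cAMP peak upstream of *Ptch1* held no consensus, and its capitals below mark the 7 bases of the core, CAAGGTC on the minus strand.
*Ptch1* upstream, cAMP peak, chr13:63606496-63606616: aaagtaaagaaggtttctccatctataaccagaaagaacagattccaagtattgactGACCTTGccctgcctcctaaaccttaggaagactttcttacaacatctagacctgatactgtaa

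Of the 5 vehicle peaks near the 10 genes, 4 held the consensus (80.0%, 95% exact Clopper-Pearson interval 28.4% to 99.5%), beside 80.4% of all vehicle peaks. Of the 4 cAMP peaks, 3 held it (75%, 19.4% to 99.4%), beside 77.1% of all cAMP peaks. When only copies outside repeat-masked sequence were counted, a choice made after seeing the data, 60% of the 5 vehicle and 25% of the 4 cAMP peaks held it, beside 53.3% and 47.9% of all peaks. In the central 200 bases it was present in 40% and 50%, beside 73.1% and 70.7%. Regions of the same width 10 kb away from each peak of the lists held it in 12.3% and 12.2% of cases. The intervals cover counting error only. The core was present in 4 of 5 vehicle and 4 of 4 cAMP peaks, beside 83.8% and 80.0% of all peaks. Of the other motifs, the AP-1 sequence TGANTCA was found in 2 of the 5 vehicle peaks, both at *Igf1r*, and in none of the 4 cAMP peaks, beside 21.6% and 23.2% of all peaks. The full cAMP response element TGACGTCA was found in none of the 9 peaks, beside 0.699% and 0.770% of all peaks. AGATAA or TGATAA, the letters of a GATA site, were found in 3 of the 5 vehicle and 1 of the 4 cAMP peaks, beside 39.5% and 36.1% of all peaks. AAAGGTCA, the site of the NR4A receptors, was found in none of the 9 peaks, beside 3.92% and 3.53% of all peaks.

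At the insulin receptor gene *Insr*, 2 vehicle peaks overlapped 2 cAMP peaks, and no other peak of the 10 genes had a counterpart. These are 2 of the 5 vehicle and 2 of the 4 cAMP peaks, beside 37.9% and 53.8% of all peaks of the lists, so the shares were near the background and say nothing particular of the genes. *Insr* lies on the minus strand of chromosome 8 from 3122061 to 3279617, and its 2 pairs of peaks both lay in intron 2. The near pair, about 23 kb into the gene, spanned 3255965 to 3256560 with vehicle and 3255973 to 3256617 with cAMP. It scored 93.43 and 89.96, above 69.8% and 71.7% of the respective lists, so that it held nearly the same place in both. Its single TCAAGGTC starts at 3256319, 61 bp from the centre of the vehicle peak and 28 bp from that of the cAMP peak, in sequence that is not repeat-masked.

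The far *Insr* pair, 31.7 kb from the transcription start site, stood low in one list and high in the other. The vehicle peak, from 3247641 to 3248166, scored 53.77 and ranked 5017th of 5721 peaks, above 12.3% of its list. The cAMP peak, from 3247579 to 3248238, scored 100.44 and ranked 919th of 4025 peaks, above 77.1% of its list. Over all 2171 overlapping pairs of the lists, the cAMP peak had the higher score in 38.9%, and the median ratio of cAMP to vehicle score was 0.880. The lists differ in length and depth is unknown, so the places give no measure of a change in binding. This pair was singled out after its values were seen, and with 1 library per condition the difference was not tested. The peak held a TCAAGGTC at 3247874 and a TCAAGGCC at 3248056, and both lie in repeat-masked sequence, as did 39.9% of the bases of the vehicle peak. Reads with several positions had been left out before peak calling, and the part this plays in the scores was not tested.

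*Igf1r*, the receptor for IGF1 and a close relative of the insulin receptor, had peaks in the vehicle list alone. It lies on the plus strand of chromosome 7 from 67952827 to 68233668, and at 281 kb it was the longest of the 10 genes. A peak in intron 2, 128 kb from the start site, spanned 68080389 to 68081120 and scored 127.88, above 84.1% of the vehicle list. It was the highest-scoring of the 9 peaks. Its CCAAGGCC starts at 68080436, 314 bp from the centre and 47 bp from the edge, whereas in all vehicle peaks with a copy the nearest one lay a median of 36 bp from the centre. The nearest cAMP peak was 312 kb from it. The other vehicle peak, from 68252531 to 68252939, lay 19.1 kb past the end of *Igf1r* and inside the next gene, *Pgpep1l*, whose start site is 11.5 kb away. It scored 50.5, above 1.4% of the list, and held neither the consensus nor its core. *Igf1* itself, the ligand, had its nearest vehicle peak 534 kb upstream and its nearest cAMP peak 654 kb downstream. These were the widest gaps of the 10 genes in both lists, and 80.9% and 82.2% of all protein-coding genes had a peak as near or nearer.

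**Figure D2:**
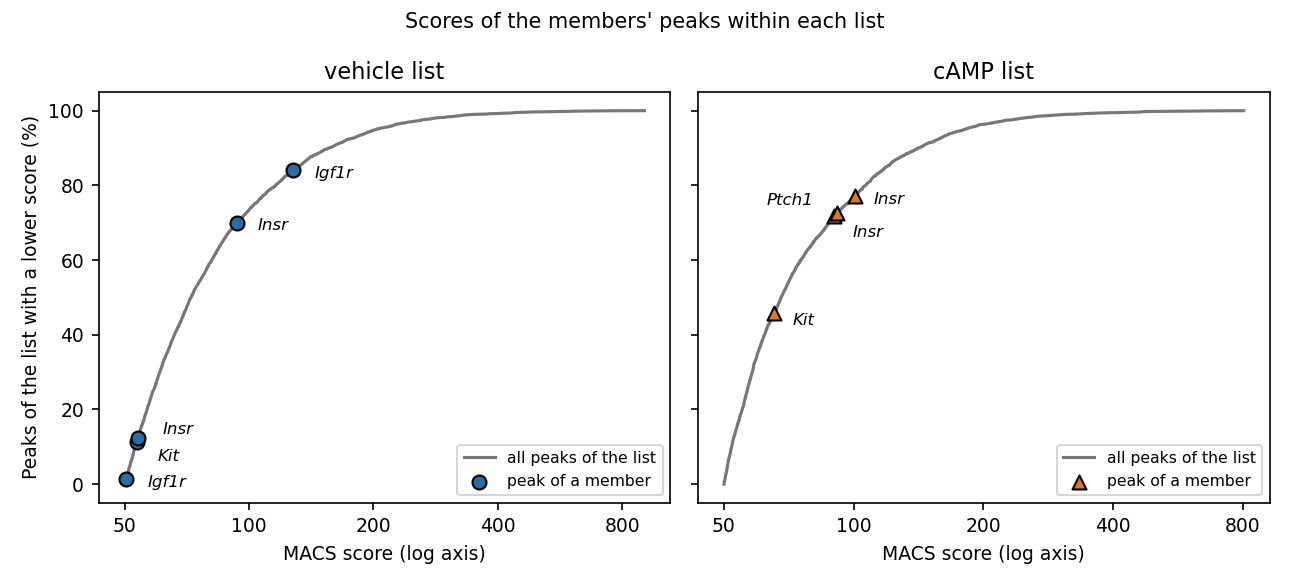
The horizontal axis is the MACS score on a log scale, and the vertical axis is the percentage of the list's peaks with a lower score. The grey line runs through all 5721 vehicle or 4025 cAMP peaks, and symbols mark peaks of the 10 genes. In the vehicle list 3 of the 5 peaks stood at 1.4% to 12.3%, at *Insr*, *Kit* and *Igf1r*, while in the cAMP list the 4 peaks stood at 45.9% to 77.1%.

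At *Kit*, the receptor for stem cell factor, each list held a single peak, and the peaks were not at the same place. *Kit* lies on the plus strand of chromosome 5 from 75574916 to 75656722. The vehicle peak, from 75580149 to 75580535, lay in intron 1, 5.43 kb downstream of the start site. It scored 53.44, above 11.2% of its list. The cAMP peak, from 75542741 to 75543252, lay 31.9 kb upstream of the start site, in no annotated gene. It scored 65.43, above 45.9% of its list. The peaks were 36.9 kb apart and neither had a counterpart in the other list, so *Kit* counted for both lists without a shared region. The upstream copy of TCAAGGTC lies in repeat-masked sequence, and the intronic TCAAGGCC does not.

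*Pdgfra*, which marks Leydig stem and progenitor cells and receives PDGF-AA, is the neighbour of *Kit* on chromosome 5 and had no peak within its window. Its nearest vehicle peak lay 57.9 kb downstream of the gene, just outside the 50 kb, from 75256157 to 75256712. It scored 195.02, above 94.4% of the list, which is higher than any of the 9 peaks inside the windows, and it held a TCAAGGTC. Its nearest coding start site was that of *Pdgfra*, 94.6 kb away, and it had no counterpart in the cAMP list. The peaks farthest from a gene but inside its window were the cAMP peaks at *Kit* and *Ptch1*, 31.7 and 32.8 kb from the gene bodies. On the other side of *Pdgfra*, 177 kb upstream and nearest to the start site of *Chic2*, lay a pair that scored 381.59 with vehicle, rank 49 of its list, and 118.39 with cAMP. The vehicle peak of this pair held 3 copies of the consensus. No peak of either list lay between *Kit* and the next receptor gene, *Kdr*.

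**Figure D3:**
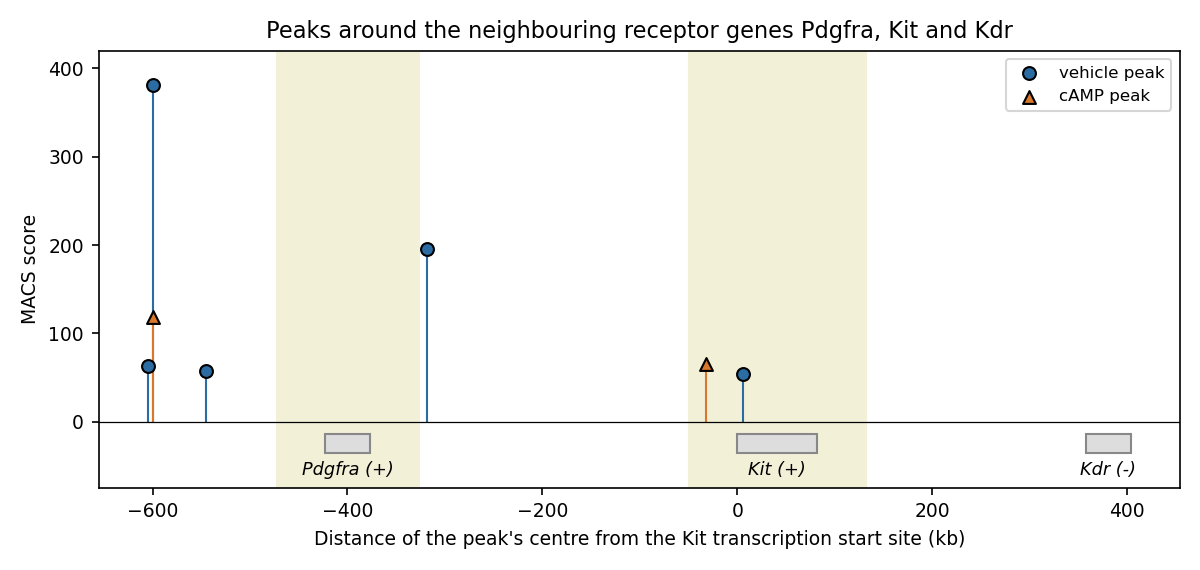
The horizontal axis is the distance of a peak's centre from the *Kit* start site in kb, and the vertical axis is its MACS score. Circles are vehicle and triangles cAMP peaks, grey boxes are gene bodies with their strand, and shaded bands are the windows of *Pdgfra* and *Kit*. The vehicle peak that scored 195.02 stands just outside the band of *Pdgfra*, and the peaks inside the band of *Kit* stand at 53.44 and 65.43.

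*Pdgfrb*, the receptor of pericytes and smooth muscle cells, had its nearest vehicle peak 94.8 kb upstream, with a score of 154.84. That peak was nearest to the start site of *Camk2a*, and the nearest cAMP peak of *Pdgfrb* was 281 kb away.

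Of the hedgehog genes, *Ptch1*, the receptor that Desert hedgehog from Sertoli cells acts on, had a peak in the cAMP list alone. *Ptch1* lies on the minus strand of chromosome 13 from 63508328 to 63573598. The peak, from 63606429 to 63606881, lay 32.8 kb upstream of the gene body and 40.9 kb from the start site of the principal transcript, in no annotated gene. It scored 91.41, above 72.5% of the cAMP list, and it was the only cAMP peak of the 4 without the consensus. The nearest vehicle peak was 333 kb from it. *Gli1*, the transcription factor whose own transcription reports hedgehog signalling, had no peak within its window. Its nearest vehicle peak lay 75.1 kb upstream near the start site of *R3hdm2*, with a score of 54.82, and its nearest cAMP peak lay 202 kb downstream near *Os9*, with a score of 59.52.

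*Lhcgr*, on the minus strand of chromosome 17 from 88716481 to 88791990, had its nearest vehicle peak 419 kb away. That peak, downstream of the gene, scored 79.0 and was closest to the start site of *Foxn2*. The nearest cAMP peak was closer, 108 kb upstream from 88899960 to 88900418, and no coding start site was nearer to it than that of *Lhcgr*. It scored 54.47, above 18.1% of the cAMP list. Of all protein-coding genes, 76.8% had a vehicle peak and 42.9% a cAMP peak as near or nearer to their gene body as *Lhcgr*.

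*Insl3* had no peak within 203 kb in either list, although its promoter carried the consensus more than once. The gene, at 1.36 kb the shortest of the 10, lies on the plus strand of chromosome 8 from 71689214 to 71690575 and wholly within the annotated body of *Jak3*. The RefSeq promoter of *Insl3* on GRCm38.p6 covers 250 bases before and 50 after the RefSeq start site, which lies inside the GENCODE gene. It is printed here because it shows the letters without a called peak, with both copies in capitals.
*Insl3* promoter, chr8:71689002-71689301, plus strand: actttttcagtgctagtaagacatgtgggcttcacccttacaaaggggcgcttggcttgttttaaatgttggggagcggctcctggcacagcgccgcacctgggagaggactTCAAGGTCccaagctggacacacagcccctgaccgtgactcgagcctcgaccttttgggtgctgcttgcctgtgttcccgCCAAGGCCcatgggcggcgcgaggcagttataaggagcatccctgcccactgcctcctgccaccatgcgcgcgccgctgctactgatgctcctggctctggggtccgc
The TCAAGGTC begins 138 bases and the CCAAGGCC 58 bases before the RefSeq start site, and neither is repeat-masked. Among 32817 RefSeq promoters of the same length, 82, or 0.250%, held 2 or more copies. Of these 82, 12 overlapped a vehicle peak (14.6%) and 8 a cAMP peak (9.76%). Of the 1798 promoters with 1 copy, 5.17% and 2.78% overlapped a peak, and of the promoters without a copy 0.870% and 0.362% did. The share with a called peak was thus higher with each step in copies, and most promoters with 2 or more copies had no called peak, as *Insl3* had none. The last step rests on few promoters. A gene can have more than 1 RefSeq promoter, as *Kit* has, so the promoters are not all separate places. The RefSeq promoters of *Lhcgr*, *Igf1*, *Igf1r*, *Pdgfra*, *Kit* and *Ptch1* held neither the consensus nor its core. *Insr*, *Pdgfrb* and *Gli1* had no entry in the promoter table. The nearest peaks of *Insl3* lay upstream, beside the start site of *Ano8*, and scored 96.58 with vehicle and 71.73 with cAMP.

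**Figure D4:**
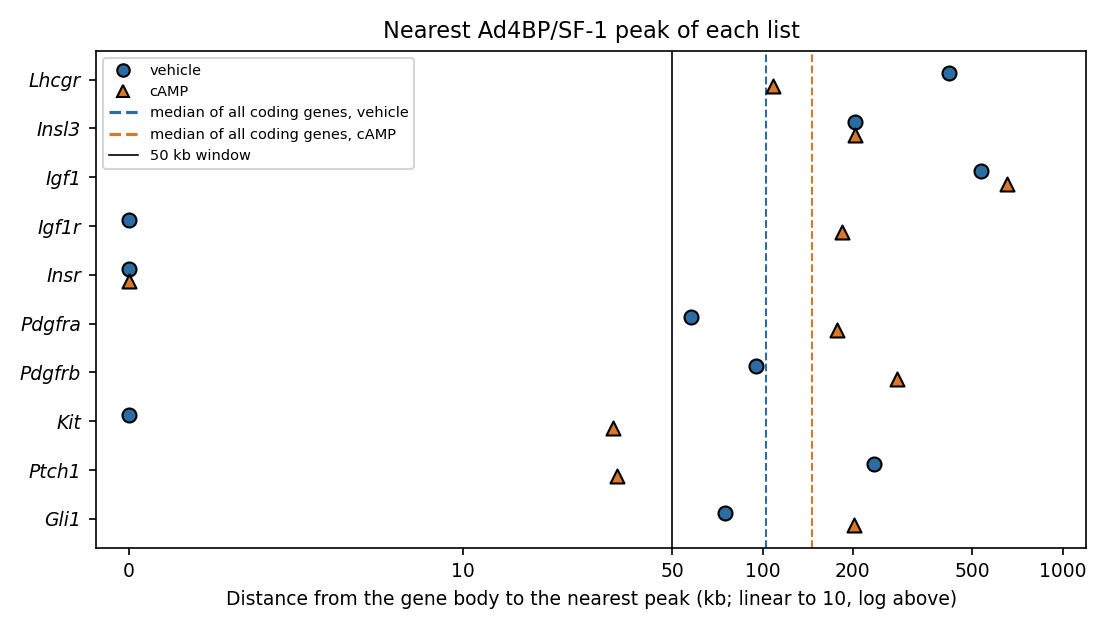
The horizontal axis is the distance in kb from the gene body to the nearest peak, linear to 10 kb and logarithmic above, with 0 for a peak within the gene. Circles are the vehicle list and triangles the cAMP list. The solid line marks the 50 kb window and dashed lines the medians over all protein-coding genes, 103 kb for vehicle and 146 kb for cAMP. *Igf1* lies farthest to the right in both lists, and *Lhcgr* is far from its nearest vehicle peak.

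Copies of the consensus were far more numerous than peaks around the 10 genes. Their windows, 1.84 Mb of sequence in all, held 450 copies, or 0.245 per kb beside 0.179 per kb over the chromosomes. The chromosomes also hold sequence far from genes, and copies were not counted over the windows of all protein-coding genes. The difference is therefore not read as an excess at the 10 genes. The number of copies in a window ran from 27 at *Igf1* to 75 at *Igf1r*. Of the 450 copies, 5 lay in a vehicle peak and 4 in a cAMP peak, which is 1.11% and 0.889%. Over the chromosomes 1.24% and 0.831% of all copies did. *Pdgfra* with 43 copies and *Lhcgr* with 41 had none in a peak, while *Insr* with 54 copies had 3 in peaks of each list. The windows held 2.72 vehicle and 2.18 cAMP peaks per Mb, beside 3.07 and 2.09 over the windows of all protein-coding genes.

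Other genes of the same pathways were taken from lists, with a window of the same size. In the list of 16 insulin and IGF genes, 10 had a vehicle peak and 2 a cAMP peak, which is 62.5% and 12.5% beside 36.7% and 28.9% of all genes. Those in the vehicle list alone included *Irs1* and *Irs2*, the adaptors that carry the signal of both receptors, and *Igf2r*, which clears IGF2. Their peaks were low, with scores of 52.71, 51.68 and 57.91. Neighbouring genes shared peaks in this list, 1 vehicle peak for *Igfbp1* and *Igfbp3* and 1 for *Igfbp2* and *Igfbp5*, so that 10 genes are not 10 separate places. *Igfbp7*, which encodes an IGF-binding protein, had an intron 2 pair with scores of 150.79 for vehicle and 60.59 for cAMP. *Igfbp6* had its highest peak 42.0 kb from its start site and nearest to *Csad*, with 130.47 and 64.46. *Igfbp2* had a vehicle peak 0.488 kb upstream of its start site, with a score of 86.96 and no counterpart. The vehicle list is also the longer one, and among its 4025 top-scoring peaks, as many as the cAMP list holds, 7 of the 16 genes had one, beside 29.5% of all protein-coding genes. Among peaks that score at least 75, 4 genes had a vehicle peak, of which *Igfbp2* and *Igfbp5* share one, and 0 had a cAMP peak, beside 22.4% and 14.6% of all genes. With so few genes and shared peaks, nothing particular to the list is read from these counts. Both limits were applied to this list after seeing the data.

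In the list of 12 PDGF and KIT ligands and receptor relatives, 3 genes had a vehicle peak and 5 a cAMP peak, which is 25.0% and 41.7% beside 36.7% and 28.9% of all genes. The ligand gene *Pdgfa* had a pair of peaks downstream of the gene that scored 145.87 for vehicle and 178.77 for cAMP. *Pdgfb* had one nearest to *Cbx7* with 240.23 and 148.34, and *Flt3*, a receptor of blood progenitors, one nearest to *Pan3* with 122.9 and 77.77. *Kitl*, which encodes the KIT ligand, had none in its window. In the hedgehog list, 4 of 12 genes had a vehicle peak and 4 a cAMP peak, 33.3% each beside the same shares of all genes. The hedgehog co-receptor gene *Boc* had a pair in intron 8 that scored 560.46 for vehicle and 480.07 for cAMP, ranks 14 and 10 of their lists. The transcription factor gene *Gli2* had an upstream pair with 122.36 and 125.55, and *Sufu*, which encodes an inhibitor of the GLI factors, an intron 8 pair with 102.6 and 74.9. *Dhh*, which encodes Desert hedgehog, had none. In the gonadotropin and relaxin-family list, 5 of 12 genes had a vehicle peak and 4 a cAMP peak, 41.7% and 33.3% beside the same shares. The prolactin receptor gene *Prlr* had 2 peaks of each list in intron 1, of which the highest scored 151.61 and 112.33, and none overlapped between the lists. *Rxfp1*, which encodes the relaxin receptor, had a pair nearest to *Etfdh* with 133.0 and 102.94, and *Rln3*, a relaxin-family hormone gene, one nearest to *Il27ra* with 106.74 and 61.02. *Rxfp2*, which encodes the receptor for insulin-like 3, had none.

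**Figure D5:**
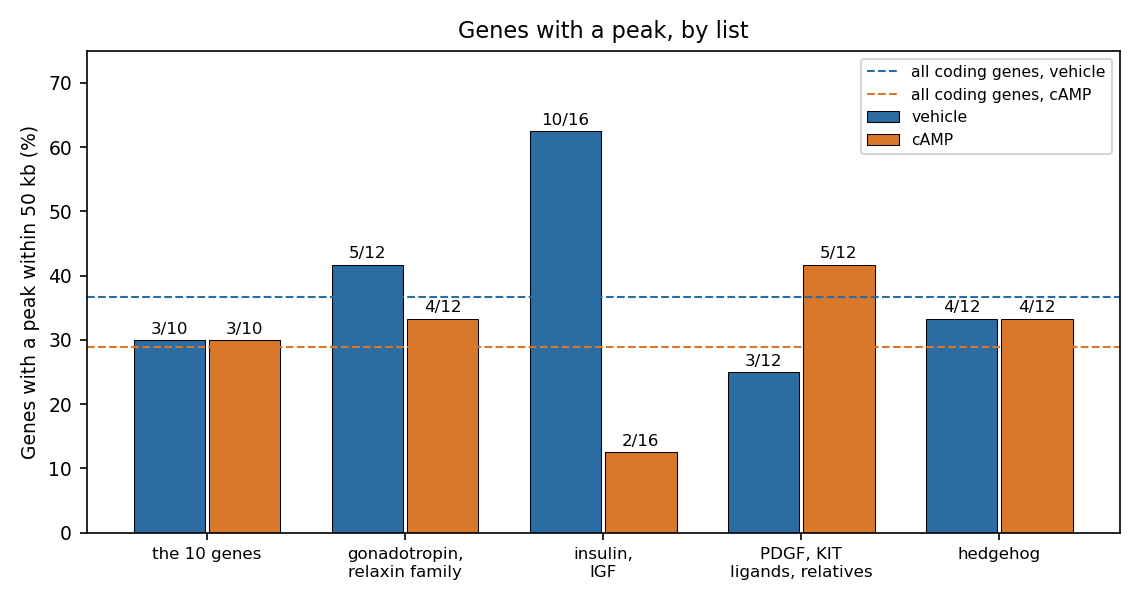
Bars give the percentage of genes with a peak within 50 kb for the 10 genes and for 4 lists of related genes, from 0, with the counts above each bar. Blue is the vehicle list and orange the cAMP list, and dashed lines are the shares of all protein-coding genes, 36.7% and 28.9%. The insulin and IGF list has the widest gap between the bars, 62.5% against 12.5%.

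The peak lists hold binding and no expression, so the cell type could not be checked by its transcripts. Of 7 Leydig markers, 4 had a vehicle peak and 3 a cAMP peak in their windows, 57.1% and 42.9% beside 36.7% and 28.9% of all genes. *Star*, *Cyp11a1* and *Hsd17b3* had one in both, *Cyp17a1* in the vehicle list alone, and *Hsd3b1*, *Insl3* and *Lhcgr* in neither. Of 6 Sertoli markers, 2 and 1 had a peak, of 5 germ cell markers 2 and 2 through a single region that *Prm1* and *Prm2* share, and of 3 macrophage markers 1 and 1. The lists of markers are too short to be read against the shares of all genes.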

How the data were processed

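Cultures of mouse Leydig cells, one with vehicle and one with cAMP, gave 1 Ad4BP/SF-1 ChIP-seq library each. An input DNA sample was not analysed here. Reads were mapped to mm10 with Bowtie, for which the submitters' processing notes name version 0.12.8 and the methods another, with up to 3 mismatches and reads of several positions excluded. The notes also name FastQC 0.11.5. Peaks were called per library with MACS, and whether the input served as the control is not given in the sources used here. The deposited lists give each peak's position and the score that the authors' caller assigned, a p-value turned into its negative log10 and multiplied by 10. The methods name a p-value threshold of 0.001, a score of 30, whereas no deposited score was under 50. Read depth is unknown, so the precision of a score is unknown.

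Positions were turned into 1-based coordinates. Genes were those of GENCODE M21 (GRCm38), and a start site is that of the longest APPRIS principal transcript. Peaks that shared at least 1 bp were counted as overlapping, which was checked with bedtools 2.31.1. Sequences and repeat masking came from the RefSeq genome of the same build, read with pysam 0.24.0 and samtools 1.23.1, and promoters from the RefSeq table. Python 3.11.15, numpy 2.4.6, pandas 2.3.3, scipy 1.17.1 and matplotlib 3.10.9 were used, and the functions were tested on simulated data. All 10 genes are named, and of each related list the 3 genes with the highest-scoring peak. *Irs1*, *Irs2*, *Igf2r*, *Igfbp1*, *Igfbp3*, *Igfbp5*, *Kitl*, *Dhh* and *Rxfp2* were named after their values were seen. The genes and lists were chosen with earlier results of these data known. No test between conditions was made. The alternatives tried were other windows, minimum scores of 75 and 100, a stricter overlap, equal list sizes, assignment by nearest start site, and other ways of searching for the consensus.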

Additional observations from a re-analysis of the deposited data

How the results depend on the processing

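With 1 library per condition, the counts and shares have no replicate error and leaving a library out was not possible. No paired analysis was possible because the results come from no test between replicates. Of 52 recomputed values, 26 stayed within 1.5 times the reported count or within its 95% interval and 26 moved beyond it, a check that small counts make coarse. Counts and shares have no direction to change. With the gene body alone, or 10 or 20 kb on either side, the genes with a cAMP peak fell from 3 to 1, those with a peak in both lists from 2 to 1, and the cAMP peaks from 4 to 2. The genes with a vehicle peak stayed at 3 of 10 in each of these windows, beside 12.6%, 19.3% and 24.6% of all protein-coding genes. Of all protein-coding genes, 9.16%, 14.0% and 18.2% had a cAMP peak in these windows, and 6.42%, 10.1% and 13.5% a peak in both lists. None of these shares is matched for gene length. *Igf1r*, *Insr* and *Kit*, the 3 genes with a vehicle peak, were the longest of the 10, at 281, 158 and 81.8 kb. With 50 kb on either side, 46.0% of all genes over 100 kb had a vehicle peak, beside 31.9% of those under 20 kb. These length classes were chosen after seeing the data, and the part that length plays was not tested. With 100 kb on either side, 6 genes had a vehicle peak, through 8 peaks, because *Pdgfra*, *Pdgfrb* and *Gli1* entered, beside 49.4% of all protein-coding genes. At this window 3 of the 10 had a cAMP peak and 2 a peak in both lists, beside 41.3% and 34.1%. With only peaks that score at least 75, 2 genes had a vehicle peak, 2 a cAMP peak and 1 both, beside 22.4%, 14.6% and 11.1% of all genes. The 2 vehicle peaks that remained held the consensus in 100%, beside 85.6% of all such peaks. Of the 3 cAMP peaks that remained, 66.7% held it, beside 89.8%. With at least 100, 1 gene had a vehicle peak, 1 a cAMP peak and 0 both, beside 14.6%, 9.12% and 6.70%. The limit was applied to both lists before overlaps were counted. The 1 peak left in each list then overlapped the other list in 0%, beside 38.6% and 63.3% of all such peaks. The cAMP peak left was the far *Insr* peak, whose vehicle counterpart scored 53.77 and was removed by the limit. Both peaks left held the consensus, or 100%, beside 87.5% and 92.0%. With as many top-scoring vehicle peaks as the cAMP list holds, 2 genes had one of 2 vehicle peaks and 1 a peak in both lists, beside 29.5% and 20% of all genes. The core was present in 100% of the cAMP peaks, beside 80.0% of all. As reported, 40% (5.27% to 85.3%) of the vehicle and 50% (6.76% to 93.2%) of the cAMP peaks overlapped a peak of the other list, beside 37.9% and 53.8% of all peaks.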

Other observations

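The peak downstream of *Pdgfa*, the gene for a PDGF chain that signals through the *Pdgfra* receptor, held more copies of the consensus than any other vehicle peak. It spans 138974510 to 138975321 on chromosome 5 in the vehicle list and 138974677 to 138975337 in the cAMP list, and it held 11 and 9 copies. In the vehicle list 1 peak held as many, this one, and in the cAMP list 2 did. All copies lie on the same strand with a spacing of 15 to 105 bp between neighbouring starts, and 0 of them are repeat-masked. A stretch of mm10 with 4 of the copies in capitals is printed here to show the arrangement, on the plus strand.
*Pdgfa* downstream peak, chr5:138974648-138974797: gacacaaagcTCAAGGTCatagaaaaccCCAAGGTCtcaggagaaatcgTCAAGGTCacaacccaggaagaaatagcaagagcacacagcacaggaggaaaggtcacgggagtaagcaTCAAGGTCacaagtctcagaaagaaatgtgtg
The score of this region stood above 88.4% of the vehicle and 94.7% of the cAMP list. The peak was noticed after its values were seen.

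Of the 5 consensus copies in vehicle peaks near the 10 genes, the 2 in the far *Insr* peak were repeat-masked. Of the 4 copies in cAMP peaks, those same 2 *Insr* copies and the upstream *Kit* copy were. The 3 *Insr* copies lie in peaks of both lists, so the lists are not separate counts. Over all vehicle peaks 36.1% of the copies were masked, over all cAMP peaks 40.9%, and over the chromosomes 38.1%.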
